A study of Mus musculus with 14 samples.

Results

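Genes of the contractile actin cytoskeleton were followed through the deposited maps of trimethylated lysine 4 of histone H3 (H3K4me3) and of putative enhancers in immortalised mouse embryo fibroblasts (iMEF). The 9 genes were taken from a list by name, namely Acta2, Actb, Actg1, Tpm1, Tpm2, Tagln, Cnn1, Myl9 and Myh9, out of 21938 protein-coding genes on chromosomes 1 to 19, X and Y. Every H3K4me3 peak with any base within 1 kb of an annotated transcription start site (TSS) of a gene was assigned to it, as was every enhancer in the gene or within 100 kb of either end. This gave 23 of the 25431 peaks and 67 of the 32965 enhancers.

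The cells carried floxed Ash2l alleles, whose exon 4 had been removed by an inducible Cre-ER. They depended on a lentiviral human ASH2L fused to FKBP12F36V, and the H3K4me3 data came from 1 clone (NG3). ASH2L belongs to the complexes that place methyl groups on H3K4, and the compound dTAG directs the fusion protein to degradation. These alleles and the fusion protein were shared by every library. The 12 H3K4me3 libraries were untreated cells and cells given dTAG for 30 min, 2 h, 4 h, 8 h or 16 h, in 2 replicates each, beside 2 inputs, 1 without dTAG and 1 after 16 h of it. The peak list covers all these samples together and the enhancer list comes from control cells. Both hold positions only, so values have no replicate error and times were not compared here. The study's methods name a planned minimum of raw reads per ChIP sample, but the depth reached by each library is unknown.

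Actin filaments and bipolar filaments of myosin II slide past each other to generate tension. Tropomyosins lie along the actin filament and, with calponins, set the access of myosin to it. Transgelin, which is related to calponins, also binds actin. Fibroblasts use this machinery for stress fibres, and smooth muscle builds its contractile apparatus from the same or closely related proteins. Serum response factor (SRF) binds CArG boxes, with cofactors that respond to the pool of free actin, and is the known regulator of many of these genes.

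The label of the cells was first compared with marker genes. All 8 fibroblast markers examined had an H3K4me3 peak, beside 59.1% of all protein-coding genes. Among them were Prrx1, with a widest peak of 3018 bp, and Col3a1, with 382 bp. Peaks were present at 2 of 6 markers of differentiated smooth muscle (Lmod1 and Smtn) and at 0 of 6 markers of skeletal or cardiac muscle. The smooth-muscle list held none of the 9 genes. Of these, Acta2, Tagln, Cnn1 and Myl9, known for high expression in smooth muscle, all had peaks. In the pathway list used below, 3 of 4 other smooth-muscle markers had a peak, and Smtn and Des were in both lists. Peaks were also present at 2 of 4 epithelial markers (Epcam and Cdh1) and 2 of 4 endothelial markers (Kdr and Tek). The latter 4 peaks were at most 1009 bp wide, and both of these counts are near the share over all protein-coding genes. A peak says that the mark was found in some sample, not that the gene was expressed.

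All 9 genes had an H3K4me3 peak, against 59.1% of protein-coding genes. They carried 1 to 4 peaks each, and 8 of 9 had at least 2, against 40.3% of the 12966 genes with a peak. With peaks less than 1 kb apart chained this contrast was lost, since 0 of 9 then had 2 or more, against 6.54% of all genes. The widest peak ranged from 1252 bp at Acta2 to 3137 bp at Myh9. Its median was 2495 bp, beside 1255 bp over all genes with a peak. The values fell into 2 sets, with 1252 to 1440 bp at Acta2, Cnn1, Myl9 and Actg1 and 2495 to 3137 bp at Tpm1, Tagln, Tpm2, Actb and Myh9. The latter 5 lay above 1710 bp, the upper quartile, which 25.0% of the genes exceeded by construction. These values depended on how a peak was assigned. When the centre of the peak had to lie within 1 kb of a TSS, Myh9 lost its peak, the median of the other 8 genes was 1382 bp beside 1233 bp over all genes, and 2 genes exceeded the upper quartile. With chained peaks the medians were 4793 and 1628 bp. The 4 genes of the former set lay near the middle, with 49.8% (Acta2) to 62.3% (Actg1) of genes narrower.

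The position of the mark set all 9 genes apart from the middle of the distribution. In the 2 kb that follow the start of the principal transcript, between 1684 bases (Acta2) and 2000 bases (Tagln and Tpm2) lay under a peak. The median was 1916 bases, beside 976 bases over all genes with a peak, and all 9 genes exceeded the upper quartile of 1343 bases (25.0% of genes). The 2 kb before the start held 0 bases at Myh9, 21 at Cnn1, 171 at Acta2, 318 at Tagln, 548 at Myl9, 571 at Actb, 697 at Tpm1, 1440 at Actg1 and 1611 at Tpm2. Here the median of 548 bases stood beside 408 bases over all genes, and 2 of the 9 exceeded the upper quartile of 738 bases. More bases were marked after than before the start at 9 of 9 genes, which was also so at 78.1% of all genes. At 8 of 9 genes over 90% of the widest peak lay downstream of the start, against 40.5% of all genes, a threshold chosen after the values were seen. The exception was Actg1, whose widest peak lay wholly upstream.

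**Figure D1:**
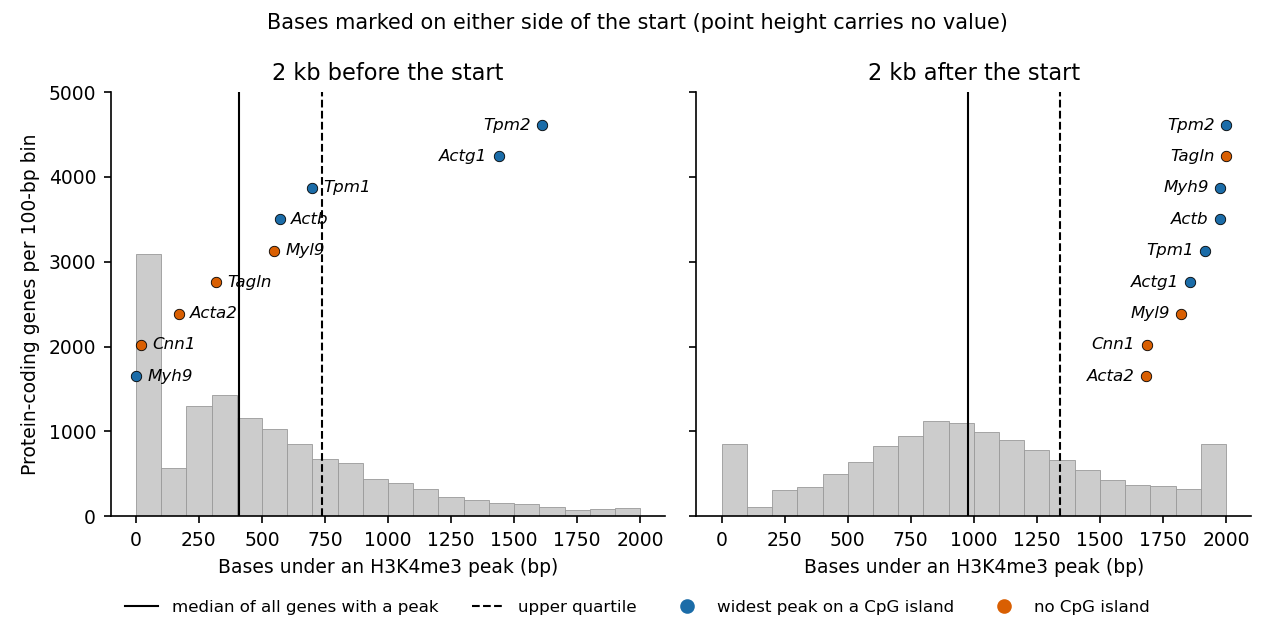
Bases under an H3K4me3 peak (bp, horizontal axis) in the 2 kb before (left) and after (right) the start of the principal transcript, with grey bars for the number of protein-coding genes per bin of 100 bp, the median as a solid line, the upper quartile as a dashed line and points for the 9 genes, blue with a CpG island and orange without (their height carries no value). After the start all points lie between 1684 and 2000 bp, to the right of the upper quartile of 1343 bp, while before it they spread from 0 to 1611 bp.

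The peaks were next read along each gene in the mouse build GRCm38.p6 (mm10), with distances in the direction of transcription from the principal start. Of the 30450 bases in the 23 peaks, 59.1% lay in introns of the gene, 10.4% in coding exons, 9.52% in untranslated regions, 2.98% in other exons and 18.0% outside the gene. Another 13 peaks of 200 to 1923 bp lay in 5 of the genes, or across their ends, more than 1 kb from any TSS of the gene. When peaks less than 1 kb apart were chained, each gene was left with a single span, from 1781 bp at Cnn1 to 9034 bp at Tpm1. No peak of the 9 genes came within 1 kb of a TSS of another protein-coding gene. At Actg1 and Myh9, 4 peaks lay near TSSs of non-coding genes (0610009L18Rik, Mir6935 and Gm23419 at Actg1 and Gm22107 at Myh9), from which the mark cannot be told apart.

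**Figure D2:**
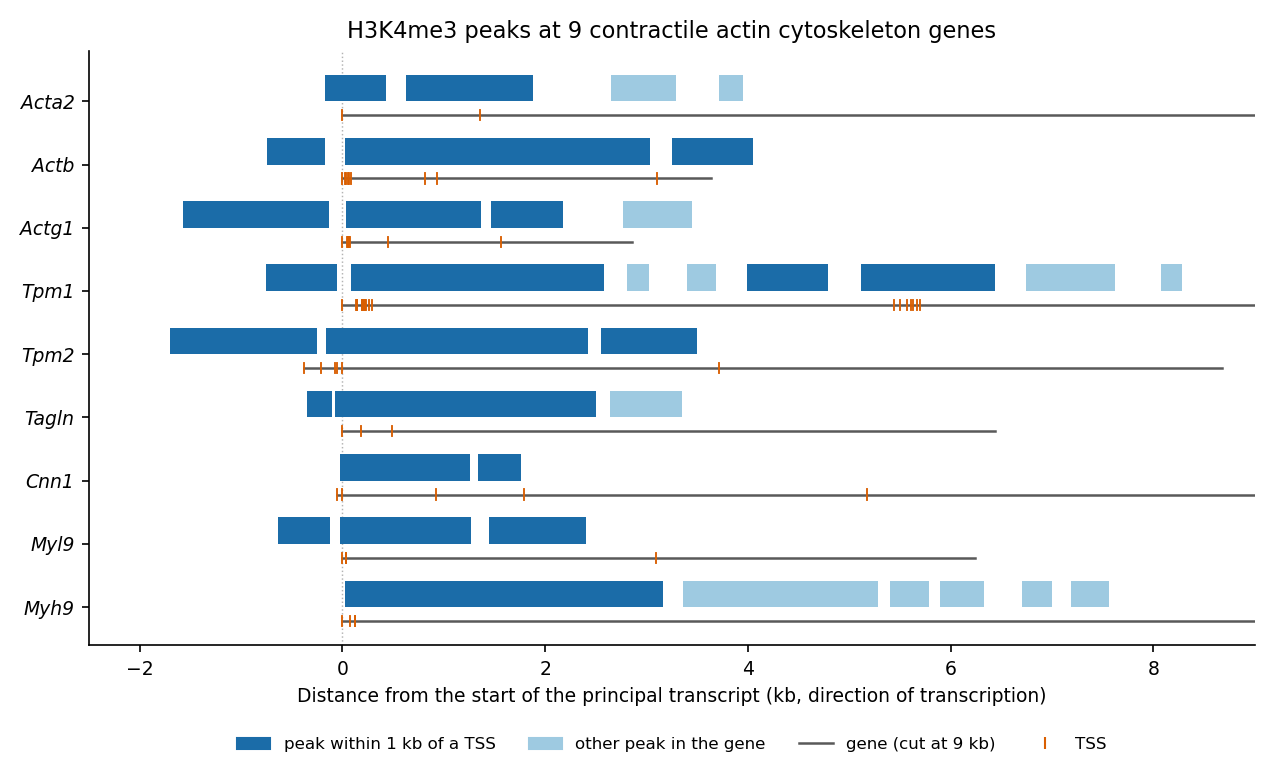
H3K4me3 peaks of the 9 genes (boxes), drawn against the distance from the start of the principal transcript in kb, with dark boxes for peaks within 1 kb of a TSS, light boxes for other peaks in the gene, grey lines for the genes (cut at 9 kb) and orange ticks for TSSs. Tpm1 and Myh9 are marked out to 8278 and 7559 bp, and Actb, Actg1, Tpm1 and Myh9 have their principal start just outside a peak.

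Acta2 encodes smooth-muscle alpha-actin, the actin of smooth muscle and of myofibroblasts. The gene (chr19:34241090-34255590, minus strand) had a peak of 603 bp over its start, from 171 bases before to 431 bases after it. Its widest peak, of 1252 bp (chr19:34253708-34254959), began 631 bases into the gene and was 87.1% intronic. Peaks of 638 and 232 bp followed, the last ending 3950 bases from the start. Peaks covered 17.6% of the gene, more than in 84.8% of genes with a peak. The TSS that RefSeq uses lies within the first exon of the GENCODE transcript, so the sequence just before it is exonic in GENCODE.

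Both cytoplasmic actins carried the mark along most of their short genes. Actb encodes beta-actin and Actg1 gamma-actin, the main actins of non-muscle cells. Actb (chr5:142903115-142906754, minus strand, 3640 bp) had peaks of 571, 3012 and 803 bp, which covered 93.5% of the gene. The peak of 3012 bp (chr5:142903719-142906730) began 24 bases after the start and held 37.6% coding sequence, and the peak of 803 bp straddled the 3' end. Actg1 (chr11:120345690-120348542, minus strand, 2853 bp) had peaks of 1440, 1326 and 713 bp and another of 684 bp across its 3' end, which together covered 74.4% of the gene. Its widest peak (chr11:120348676-120350115) was the upstream one, from position -1573 to -134, outside the gene. A smaller share was covered in 99.2% of genes with a peak than in Actb, and in 98.2% than in Actg1, but long genes cannot reach such shares with peaks of this width. The median length was 9055 bp for the 9 genes and 25821 bp for all genes with a peak. Actins have close paralogs and processed copies, and the study's methods say that unusable reads were filtered by ENCODE guidelines, without naming reads that fit several places.

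The tropomyosins differed in the number of their start regions. Tpm1 (chr9:67022590-67049406, minus strand) had 21 annotated TSSs, of which 13 lay within 288 bases of the principal start and 7 between 5444 and 5697 bases downstream of it. Both groups were marked. At the 5' group, peaks of 697 and 2495 bp stood on either side of the start, and the widest (chr9:67046828-67049322) was 77.7% intronic. At the downstream group, a peak of 1324 bp ran from 5111 to 6434 bases, after one of 800 bp in the intron before it. The remaining TSS, of a non-coding transcript, lay 8303 bp from the nearest peak. Tpm2 (chr4:43514711-43523765, minus strand) had peaks of 1449, 2585 and 941 bp. They ran from position -1701 to 3494 bases after the principal start and covered 40.3% of the gene. All of its 6 TSSs were marked.

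Tagln encodes transgelin, an actin-binding protein of the calponin family, and Cnn1 encodes calponin of smooth muscle. Tagln (chr9:45929619-45936058, minus strand), which overlaps the gene Pcsk7, had a peak of 2569 bp (chr9:45933559-45936127) that was 87.4% intronic, with a peak of 249 bp before it. A peak of 706 bp in an intron followed, and 49.8% of the gene was covered. Cnn1 (chr9:22099216-22109630, plus strand) had peaks of 1283 bp (chr9:22099247-22100529) and 423 bp, both downstream of or over the start, and 16.4% of the gene was covered. It had the shortest span of the 9 genes. The remaining TSS of Cnn1, 5177 bases after the principal start and of a non-coding transcript, was not marked.

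Myl9 encodes a regulatory light chain of myosin II, whose phosphorylation activates the motor, and Myh9 encodes the heavy chain of non-muscle myosin IIA. Myl9 (chr2:156775420-156781658, plus strand) had peaks of 521, 1296 and 961 bp, from position -639 to 2406 bases after the start, and 35.7% of the gene was covered. Myh9 (chr15:77760587-77842175, minus strand) had a single peak by the TSS rule, of 3137 bp (chr15:77839015-77842151), which began 24 bases after the start and was 93.8% intronic. It was followed by intronic peaks of 1923, 385, 432, 303 and 368 bp. No base of the 2 kb before its start was marked. Its 4 TSSs within 128 bases of the start were marked, while the other 4, between 28944 and 74985 bases after the start, lay 21385 bp or more from any peak. Peaks covered 8.03% of this gene of 81589 bp.

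Peaks were interrupted at the start of several genes. A gap between neighbouring peaks that held the principal start, or came within 100 bases of it, was seen at 5 of 9 genes, against 21.5% of all genes with a peak, by a rule set after the values were seen. It measured 33 bp at Tagln, 91 bp at Myl9, 142 bp at Tpm1, 172 bp at Actg1 and 196 bp at Actb, and the median over all such genes was 149 bp. The principal start itself lay in a peak at 5 of 9 genes (Acta2, Tagln, Cnn1, Tpm2 and Myl9), against 77.2% of all genes. At the other 4 it lay 24 to 59 bases outside the nearest peak. Such a gap needs at least 2 peaks, which 8 of the 9 genes had, against 40.3% of all genes with a peak. Among genes with at least 2 peaks, a gap was seen at 5 of 8 here and at 2784 of 5231 over all genes. The part of peak number in this count was not tested.

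Islands dense in CpG dinucleotides cover the promoters of most broadly used genes. The widest peak overlapped such a CpG island at 5 of 9 genes (Actb, Actg1, Tpm1, Tpm2 and Myh9), below the 87.5% of all genes with a peak. The 4 genes without were Acta2, Tagln, Cnn1 and Myl9, which are known for their high expression in smooth muscle. From 250 bases before to 50 bases after the principal start, the ratio of observed to expected CpGs was 0.223 at Acta2, 0.242 at Cnn1, 0.487 at Tagln and 0.551 at Myl9. It was 0.603 at Tpm2, 0.636 at Myh9, 0.787 at Tpm1, 1.10 at Actg1 and 1.15 at Actb, beside a median of 0.765 over all genes. Both groups of genes reached long marked stretches after the start, with 1684 to 2000 bases without an island and 1859 to 2000 bases with one. Over all genes with a peak, those without an island had a median of 673 bases there and an upper quartile of 1021 bases. Those with an island had a median of 1010 bases and an upper quartile of 1378 bases.

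**Figure D3:**
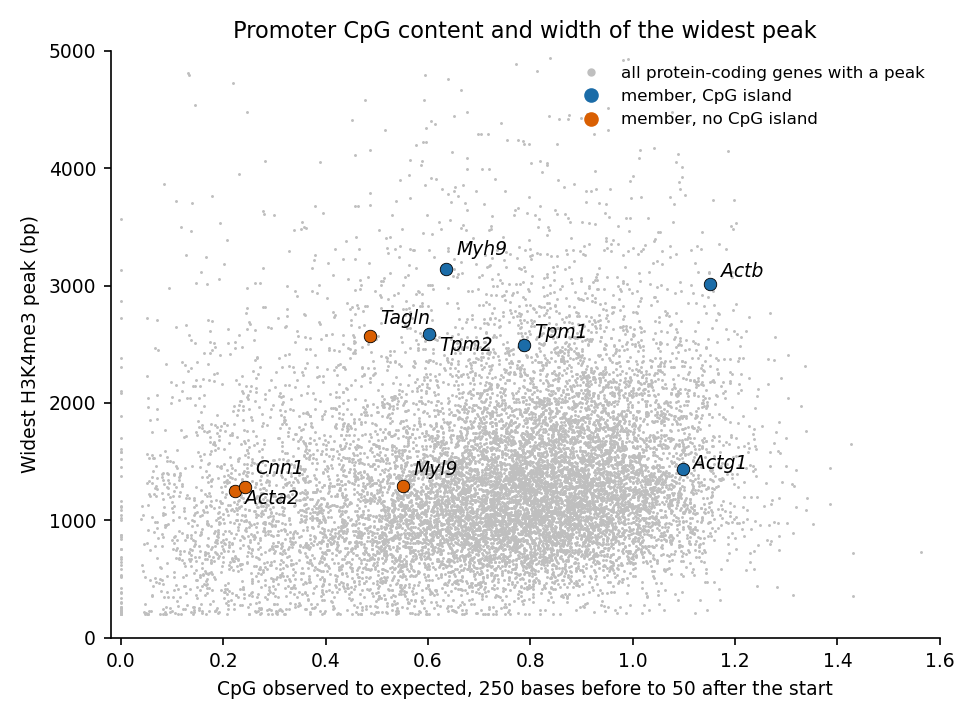
Ratio of observed to expected CpGs at the principal start (horizontal axis, 250 bases before to 50 after) against the width of the widest H3K4me3 peak in bp (vertical axis), with grey dots for protein-coding genes with a peak (21 lie outside the axes), blue points for those of the 9 genes with an island and orange points for those without. Acta2 and Cnn1 lie at the left edge, at 0.223 and 0.242, with widths near the median of 1255 bp, and Tagln reaches 2569 bp at a ratio of 0.487.

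The sequence around the starts was searched for the CArG box, written as 2 C, 6 bases that are A or T, and 2 G. RefSeq promoter sequences of build GRCm38.p6 were at hand for 7 of the 9 genes. Actb and Tagln had no entry and were left out of all motif searches, while the shares over all genes and peaks were not limited in this way. From 250 bases before to 50 bases after the principal start, 2 of 7 genes (Actg1 and Myl9) held a box, against 1.35% of all genes with a peak. The RefSeq promoter windows of the same length gave the same 2 of 7, against 1.63% of 32851 windows. With 1 mismatch allowed in the A or T core, 3 of 7 RefSeq windows matched (Acta2, Actg1 and Myl9), against 9.98%. Around the GENCODE starts it was 2 of 7, and the share over all genes was not summarised there. A match is a string of letters and was not tested for binding. The promoter stretches without an annotated exon are printed here for Actg1 (chr11:120348543-120348677, minus strand) and Myl9 (chr2:156775214-156775407, plus strand), 5' to 3', since these 2 hold a perfect box, shown in capitals.
Actg1: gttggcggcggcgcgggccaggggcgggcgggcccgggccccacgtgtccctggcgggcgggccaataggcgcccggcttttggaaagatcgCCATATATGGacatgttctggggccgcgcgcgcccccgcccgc
Myl9: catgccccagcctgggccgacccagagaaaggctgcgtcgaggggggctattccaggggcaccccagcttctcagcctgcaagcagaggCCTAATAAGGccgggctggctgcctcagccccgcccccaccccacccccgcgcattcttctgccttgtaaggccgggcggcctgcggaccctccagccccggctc

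In Actg1 the box began at position -90 from the RefSeq start, in the gap of 172 bp between its peaks. In Myl9 it began at -161, in the gap of 91 bp. At Acta2 the 2 boxes with 1 mismatch began at -84 and -34, inside the peak of 603 bp. They are shown with 10 bases on either side (chr19:34255438-34255467 and chr19:34255388-34255417, minus strand), with the imperfect box in capitals.
Acta2 upstream box: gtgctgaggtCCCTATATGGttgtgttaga
Acta2 downstream box: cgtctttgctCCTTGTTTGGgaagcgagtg

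Within the widest peak, a perfect CArG box was found in 4 of 7 genes (Acta2, Actg1, Cnn1 and Myh9), against 4.54% of the 11608 widest peaks of all genes. Wider peaks hold more letters, so the density was compared as well. It was 0.297 boxes per kb in the 7 genes and 0.0349 per kb over all widest peaks. A density allows for width but not for base composition. The boxes of Acta2 and Cnn1 lay 1293 and 858 bases after the principal start, in introns, ahead of other annotated TSSs of these genes at 1360 and 924 bases. That of Actg1 lay at -516, and that of Myh9, at 1443, overlapped an annotated exon and is not shown. These 3 are printed with 45 bases on either side, because they lie under the mark and not at the start, for Acta2 (chr19:34254243-34254342, minus strand), Actg1 (chr11:120349004-120349103, minus strand) and Cnn1 (chr9:22100081-22100180, plus strand). Capitals mark the box.
Acta2 intron: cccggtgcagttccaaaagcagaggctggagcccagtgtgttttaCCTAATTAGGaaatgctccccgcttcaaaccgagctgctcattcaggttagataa
Actg1 upstream peak: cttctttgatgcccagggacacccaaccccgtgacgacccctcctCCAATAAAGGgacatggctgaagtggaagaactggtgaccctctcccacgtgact
Cnn1 intron: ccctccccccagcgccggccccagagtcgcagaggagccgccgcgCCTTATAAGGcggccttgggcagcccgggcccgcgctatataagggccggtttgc

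Motifs of other regulators of fibroblasts were searched on both strands in the same windows. The AP-1 motif (TGANTCA), bound by Fos and Jun proteins, was in 0 of 7 RefSeq promoter windows, against 7.81% of all windows. It was in the widest peak of 5 of 7 genes (Acta2, Tpm1, Tpm2, Myl9 and Myh9), against 19.0% of all widest peaks, at 0.593 per kb and 0.165 per kb. The TEAD motif (GGAATG), bound by the partners of the YAP coactivator, was in 2 of 7 promoter windows (Acta2 and Tpm1), against 14.7%, and in 4 of 7 widest peaks (Acta2, Actg1, Tpm1 and Tpm2), against 42.6%. Its density in the peaks, 0.519 per kb, stood beside 0.461 per kb over all. The TATA box (TATAAA) was in 4 of 7 widest peaks, against 23.1%, at 0.593 and 0.224 per kb. The GC box (GGGCGG) was in 7 of 7, against 85.4%, at 1.71 and 2.59 per kb. In the promoter windows these were in 1 of 7 (13.6% of all) and 5 of 7 (35.7% of all). The part of base composition in the motif contrasts was not tested.

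Enhancers were then assigned by distance. All 9 genes had at least 1 of the listed enhancers within 100 kb, as had 89.5% of genes with a peak. The number was 14 at Actb, 14 at Tpm1, 10 at Myh9, 9 at Acta2, 6 at Actg1, 6 at Tagln, 4 at Cnn1, 2 at Tpm2 and 2 at Myl9. The median was 6, beside 4 over all genes with a peak. Of the 67 enhancers, 33 lay on the 5' side, 31 on the 3' side and 3 in a gene. An enhancer in the gene was present at 2 of 9 genes (Tpm1 and Myh9), against 35.4% of all genes with a peak, which are longer. Proximity does not assign an enhancer to a gene, and for 45 of the 67 the nearest protein-coding TSS belonged to another gene.

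The tropomyosin gene Tpm1 stood in an array of wide enhancers. For 10 of its 14 enhancers the nearest protein-coding TSS was its own, and together the 14 covered 14281 bp. On its 5' side 7 of these, of 689 to 1990 bp, lay between 21779 and 87751 bp from the gene, with none nearer. The nearest protein-coding neighbour, Lactb, was 47106 bp away from the gene. One enhancer of 1685 bp (chr9:67024659-67026343) lay towards the 3' end of Tpm1, 23.9 kb from the start, and another of 278 bp lay under the 800 bp peak before the downstream start region. Myh9 had 10 enhancers covering 9983 bp. Of these, 8 were on its 5' side, from 6149 bp outward, and 1 of 989 bp lay in the gene (chr15:77776747-77777735), 64.9 kb from the start and 56881 bp from the nearest H3K4me3 peak. Its own TSS was the nearest for 5 of the 10.

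The other 7 genes had 2 to 14 enhancers each. Acta2 had 9, of 200 to 599 bp, all outside the gene, and only the nearest on its 5' side, 9961 bp away, was closest to its own TSS. Stambpl1, the nearest protein-coding gene, was closest for 3 on the 3' side. Other genes were closest for the rest, among them all the other enhancers on the 5' side. Cnn1 had an enhancer of 636 bp at 2741 bp on its 5' side (chr9:22095840-22096475). Outside the gene bodies, 2 enhancers touched a peak of their own gene. These were a region of 2190 bp that began 157 bp before Actg1 and overlapped its upstream peak, and a region of 216 bp that began 195 bp past the 3' end of Actb, within the peak of 803 bp. The 2 enhancers of Myl9, of 1345 and 2954 bp, were at least 38208 bp away. At Tagln, Tpm2 and Myl9 no enhancer was nearest to the gene itself.

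**Figure D4:**
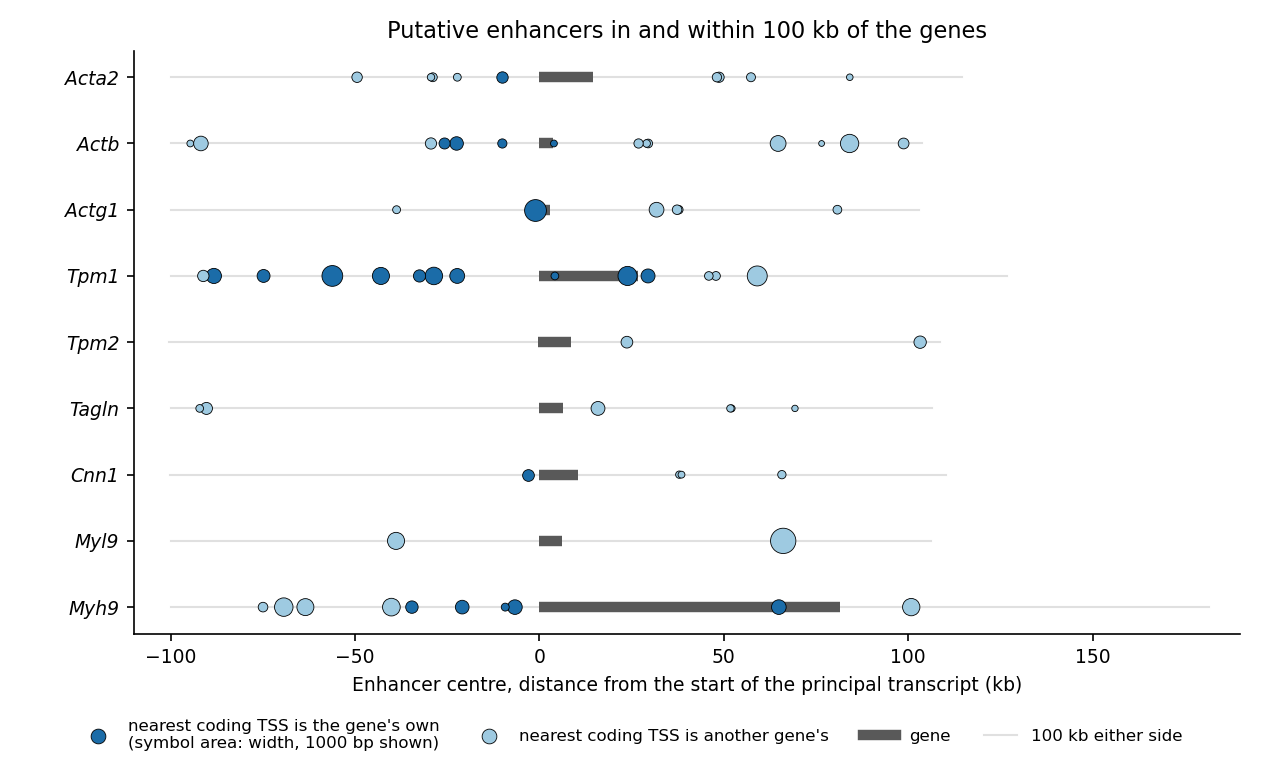
Putative enhancers in the genes or within 100 kb of either end, by the distance of their centre from the start of the principal transcript in kb, with the area of a circle proportional to enhancer width, dark circles where the nearest protein-coding TSS is the gene's own and light circles elsewhere. Tpm1 has 10 dark circles and Myh9 has 5, while Tagln, Tpm2 and Myl9 have 0.

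An H3K4me3 peak overlapped 10 of the 67 enhancers, against 7.52% of all enhancers. The enhancers of the 9 genes had a median width of 585 bp, beside 405 bp over all, and wider regions can meet a peak more often. The study left out enhancers within 1 kb of known promoters. By the TSSs of all GENCODE M21 transcripts, a set that may differ from the study's, 11 of the 67 lay within 1 kb of one. The share over all enhancers was not computed. Motifs were counted in the 47 enhancers of the 7 genes with RefSeq promoters. The AP-1 motif was in 21 of 47, against 30.2% of all enhancers, at 0.813 per kb and 0.756 per kb over all. The CArG box was in 4 of 47 (3.23% of all) and the TEAD motif in 20 of 47 (32.3% of all). The densities were 0.127 and 0.0643 per kb for the CArG box and 0.686 and 0.848 per kb for the TEAD motif. The region that overlaps the upstream peak of Actg1 held 2 of the CArG boxes, among them the box already counted in its widest peak.

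The 9 genes were set beside 53 other genes of the actin and myosin pathway, grouped by role. An H3K4me3 peak was found at 46 of the 53. The 7 without were the remaining muscle actins Acta1, Actc1 and Actg2, the myosin heavy chains Myh11 (smooth muscle) and Myh14, the SRF cofactor Myocd and the intermediate filament gene Des. So Acta2 was the only muscle actin of the 4 listed to have a peak. Among the 46, the median widest peak was 1765 bp and the median of bases marked in the 2 kb after the start was 1629.5, both between the values of the 9 genes and those of all genes. The upper quartile of bases marked after the start was exceeded by 30 of the 46, among them 8 of 8 crosslinkers and adhesion linkers, 6 of 6 genes of actin turnover and 4 of 4 other myosin chains, so this was not particular to the 9 genes.

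Genes of actin turnover had the widest peak of the list at Pfn1 (4791 bp), encoding profilin, which supplies actin monomers, and ranged down to Dstn (1068 bp), encoding the severing protein destrin. Crosslinkers and adhesion linkers ranged from Flna (1143 bp, filamin A) to Actn1 (3996 bp, alpha-actinin). The other tropomyosins and calponin relatives ranged from Tagln3 (679 bp) to Tagln2 (4053 bp). The other myosin chains with a peak ranged from Myl12a (967 bp, a peak shared with Myl12b) to Myl6 (4226 bp), which encodes the essential light chain.

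Median widths were below that of all genes at 2 groups of regulators, with 814 bp for the kinase and phosphatase of myosin light chain and caldesmon and 1144.5 bp for nucleators. The kinase of the myosin light chain, Mylk, had the narrowest of the list (404 bp), and caldesmon, Cald1, reached 2312 bp with 26 enhancers in or within 100 kb of the gene. Among nucleators of filaments widths ran from 571 bp at the formin gene Diaph3 to 2007 bp at Lmod1. Srf itself had a widest peak of 2810 bp, and its cofactor Mrtfa had 852 bp. Of the other smooth-muscle markers, Synpo2 had 525 bp and Smtn 1863 bp.

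**Figure D5:**
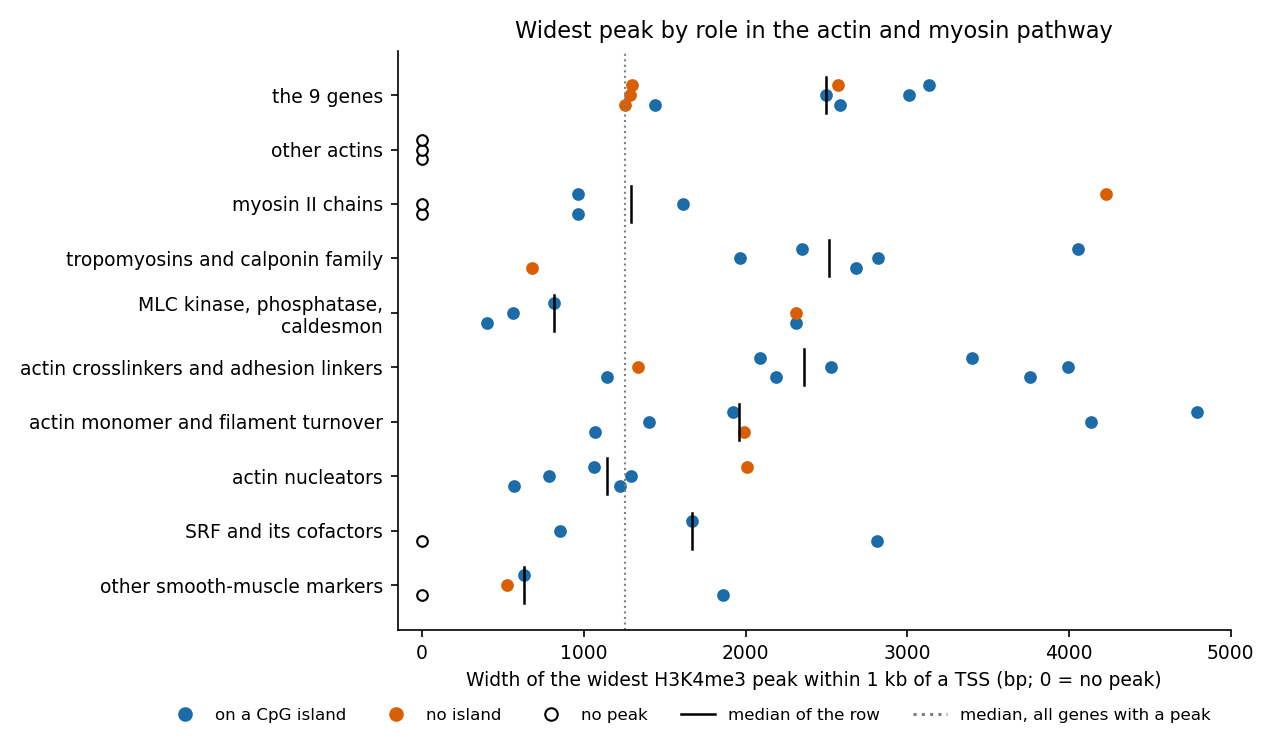
Width of the widest H3K4me3 peak within 1 kb of a TSS in bp (horizontal axis) for the 9 genes and for other genes of the pathway in the roles described here (rows), with blue points for peaks on a CpG island, orange points for others, open circles at 0 for genes with no peak, black bars for the median of a row and a dotted line for the median of all genes with a peak. The 9 genes span 1252 to 3137 bp, the other actins have no peak, and Pfn1 is the widest at 4791 bp.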

How the data were processed

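The deposited files used here were 2 position lists, made by the authors per the study's methods by trimming reads with Trim Galore, aligning them with BWA to mm10 (GRCm38.p6), filtering with samtools, merging replicates with Picard and calling narrow peaks with MACS. Versions are not given in the sources used here. Enhancers were defined by the authors by H3K4me1, H3K27ac and accessible chromatin. These 2 lists have 0 columns of values per sample, so samples were not tested against each other, and the study's comparisons between times were not analysed here. Peak starts count from 0 and enhancer starts from 1. All positions here count from 1. Libraries were grouped by their labels.

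TSSs were the 5' ends of all GENCODE M21 transcripts. The principal transcript was chosen by APPRIS tag, support level and length. CpG islands (over 200 bp, GC over 50%, ratio over 0.6) were called from the reference. Gaps were counted up to 500 bp. Motif searches covered the 7 genes with RefSeq promoters, a change from the design, which had all 9. Named were all 9 genes, nearest protein-coding neighbours, genes whose TSS shares a peak, and of the pathway list those without a peak and the widest and narrowest of each role. The genes and lists were chosen with earlier results of these data known. The results of 1 pathway role and 1 marker list are not reported here. Code was tested on simulated data, with 0 errors in 1000 interval queries. The work was run in Python 3.11.15 using NumPy 2.4.6 and Numba 0.67.0, pandas 2.3.3 for tables, and Matplotlib 3.10.9 for plots. Alternatives were other TSS sets, windows, distances, peak sets, island rules and motif rules.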

Additional observations from a re-analysis of the deposited data

How the results depend on the processing

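In 52 of 59 alternatives the value stayed within 1.5 times of a count or within the 95% interval of a median. That interval treats the 9 genes as a random draw, which a list taken by name is not. Chaining peaks within 1 kb left 9 peaks in place of 23 and raised the median widest peak of the 9 genes from 2495 to 4793 bp, beside 1628 bp over all genes. Counting a peak by its centre lowered that median to 1382 bp, beside 1233 bp over all genes, which is inside the wide interval of the median (1283 to 3012 bp) though a change of over 1.5 times, and left 8 genes with a peak. Leaving out each of the 9 genes in turn gave 1967.5 to 2532 bp. These 9 alternatives are among the 52 but could not leave the interval, since dropping 1 value moves a median only between its neighbours. Within 200 kb there were 115 enhancers. Of the 67 within 100 kb, 22 were nearest to a TSS of their gene. The median share of the widest peak downstream of the start, 98.4%, fell to 78.5% with the TSS nearest the centre of the peak. A CArG box was present in 4 of 7 genes within the widest peak, against 4.54% of all widest peaks. Within 1 kb of the start it was present in 5 of 7. That window is longer than the main one, and the share over all genes was not computed for it. With peaks of at least 500 bp, an alternative added after seeing the data, 8 of 9 genes exceeded the upper quartile of bases marked after the start. No paired analysis was possible because positions come without a value for any library, and no result came from a test. With the depth reached by each library unknown, a missing peak does not show that the mark was absent. Merging over times hides which samples gave a peak.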
